A study of Mus musculus with 35 samples.

Results

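The genes described here write and read methylation of lysine 9 on histone H3 (H3K9), the mark opposed by JMJD1B. They are the 6 H3K9 methyltransferase genes Ehmt1, Ehmt2, Setdb1, Setdb2, Suv39h1 and Suv39h2, the 3 HP1 genes Cbx1, Cbx3 and Cbx5, and the corepressor gene Trim28. They were chosen by name, and 10 of 10 were present among the 11982 gene names of the expression table. Their RNA was measured by RNA-seq in hematopoietic stem/progenitor cells (HSPCs), the immature cells of bone marrow from which blood cells are made. The cells came from WT mice and from JMJD1B-/- mice carrying a gene-trap knockout of Kdm3b, the gene that encodes JMJD1B, with 2 libraries per genotype. Both genotypes were labelled as 129P2xC57BL/6J. The knockout was made from 129P2 embryonic stem cells and was not limited to blood cells, so the HSPCs had developed in mice whose other tissues also lacked JMJD1B. The study used adult mice of both sexes, and the sort behind these HSPCs and the age and sex behind each library are not given in the sources used here. Levels are in RPKM, a read count scaled by transcript length and library size, so that they can be compared between genes. Values with ± are means and SDs over n = 2 libraries.

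Methylation of H3K9 marks silenced chromatin, and its forms are laid down by different enzymes. G9a (Ehmt2) and GLP (Ehmt1) act as a pair that adds 1 or 2 methyl groups in gene-rich chromatin. SUV39H1 and SUV39H2 trimethylate H3K9 in the heterochromatin around centromeres. SETDB1 is recruited by TRIM28, which is itself brought to DNA by KRAB zinc finger proteins and silences endogenous retroviruses, and SETDB2 is a related enzyme. HP1 proteins bind methylated H3K9 through a chromodomain, and are encoded by Cbx5 (HP1 alpha), Cbx1 (HP1 beta) and Cbx3 (HP1 gamma). JMJD1B removes methyl groups from H3K9me2, and the study reports that it also demethylates arginine on histone H4 (H4R3me2s and H4R3me1). The study also reports unchanged expression of methyltransferase genes in the knockout, naming arginine methyltransferases and G9a. The comparison asks whether cells without this demethylase carried different RNA levels of the opposing writers or of the readers.

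Kdm3b itself checked the labels. The WT libraries held 31.0 and 24.3 RPKM of Kdm3b and the JMJD1B-/- libraries 4.00 and 4.63 RPKM, 15.6% of the WT mean, and the libraries did not overlap. The difference was -2.65 on the log2 scale (SE 0.24, adjusted p = 0.0314, limma). Its direction and an unadjusted p under 0.05 held in 13 of 13 alternative analyses, while the adjusted p ranged from 1.08e-06 to 0.796 and missed the threshold under median-ratio scaling, quantile normalization, limma without trend, a gene-by-gene test without shared variance, and without either WT library. Depth was estimated from the steps between low RPKM values at 17500000 and 24600000 reads in WT and at 6100000 and 21000000 reads in JMJD1B-/-, so JMJD1B-/- replicate 1 was the shallowest. The value for that library is uncertain by a factor of 2. The steps alone gave 12200000 reads, which was halved because its whole-read numbers were even in 24 of 24 genes. It was the shallowest at either value. The header of its column, unlike the other headers, holds the letters cat, which the labels do not explain. A level of 3 reads on a transcript of 1 kb corresponded to 0.491 RPKM in that library, below the level of each member. WT replicate 2 stood apart by sex-linked RNA, with 331.6 RPKM of Xist, the RNA that silences an X chromosome, against at most 0.0510 RPKM in the other 3 libraries. Its level of the Y-linked gene Ddx3y was 0.411 RPKM against 25.5 to 29.3 RPKM elsewhere.

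Marker RNA of several blood cell types also differed with genotype, where 6.33% of all genes were lower and 3.81% higher at an unadjusted p under 0.05. The summed level of 6 stem and progenitor markers was 264.1 and 234.1 RPKM in WT and 145.6 and 192.8 RPKM in JMJD1B-/-, with 4 of 6 lower at that threshold. Kit, the stem cell factor receptor, was present in each library at 51.6 to 92.7 RPKM. Summed erythroid markers were 176.3 and 246.2 RPKM in WT and 468.7 and 1025 RPKM in JMJD1B-/-, with 5 of 6 higher. Basophil and mast cell markers were lower in JMJD1B-/- in 4 of 4, from 421.9 and 501.8 RPKM to 86.9 and 39.6 RPKM in sum. The 6 granulocyte markers summed to 256.3 and 175.2 RPKM in WT and to 60.9 and 30.0 RPKM in JMJD1B-/-, with 4 of 4 tested lower. Camp and Ltf were too low to be tested, and Camp was listed at 0 in WT replicate 2 and JMJD1B-/- replicate 1 and reached 1.03 RPKM in JMJD1B-/- replicate 2. Monocyte and macrophage markers summed to 29.8 to 50.6 RPKM in WT and 14.2 to 35.0 RPKM in JMJD1B-/-, with 2 of 4 lower. T and NK cell markers summed to 10.5 and 14.5 RPKM in WT and to 42.7 and 9.03 RPKM in JMJD1B-/-, overlapping. Since the table holds only entries above a minimum in some library, genes that reach it in 1 genotype alone had to differ, and no count of calls is given for this list. Of 6 B cell markers 1 was in the table, Cd79b, at 1.99 to 3.28 RPKM in WT and 0.631 to 1.22 RPKM in JMJD1B-/-. In such bulk samples, fewer cells of a type and less RNA per cell cannot be told apart, and the part of these shifts in the values below was not tested.

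None of the 10 genes passed the test for a difference between JMJD1B-/- and WT HSPCs. In limma, 0 of 10 were lower at an unadjusted p under 0.05, where 6.33% of the 11863 genes tested were lower, and 0 of 10 were higher, where 3.81% of all genes were. In either direction 10.1% of all genes were called, and 0.0421% passed at an adjusted p under 0.05, with 0 of the members among them. Their adjusted p-values ran from 0.562 for Suv39h2 to 0.973 for Setdb1. The fitted log2 fold change was negative for 4 members and positive for 6, with a median of 0.04 against -0.02 over all genes tested. The members' median changed sign with the libraries and scaling used, from -0.09 without JMJD1B-/- replicate 2 to 0.19 without JMJD1B-/- replicate 1, with -0.01 without WT replicate 1 and -0.03 under quantile normalization. The median size of the difference, without its sign, was 0.11 for the members and 0.26 for all genes. It was 0.12 for the 45 partner, demethylase and PRDM genes described below, so the small size was not particular to the members. The median SE was 0.20 for the members, 0.21 for those 45 genes and 0.27 for all genes. The genotypes did not overlap for 3 of 10 members, against 42.9% of all genes. For 1 of these, Ehmt1, each JMJD1B-/- library was below each WT library, as for 22.7% of all genes, and for 2, Suv39h1 and Suv39h2, each was above, as for 20.1% of all genes. Without WT replicate 2 the members' median was 0.10, against -0.03 over all genes. Without the shallow JMJD1B-/- replicate 1 it was 0.19, against 0.09 over all genes.

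In WT HSPCs the levels spanned from Cbx3 at 132.5 RPKM to Suv39h2 at 3.80 RPKM, and the readers and Trim28 ranked above most of the enzymes. Cbx3, Trim28 and Cbx5 came first, in that order, with libraries that did not overlap between neighbours. Ehmt1 and Cbx1 followed with overlapping libraries, as did Setdb1 with Ehmt2 and Ehmt2 with Suv39h1. Setdb2 and then Suv39h2 were lowest, each apart from its neighbour. In JMJD1B-/- HSPCs Cbx3 was again highest and Setdb2 and Suv39h2 lowest. The libraries of Trim28 and Cbx5 overlapped there, and Cbx1, Ehmt1, Suv39h1, Setdb1 and Ehmt2 formed a run in which each overlapped its neighbour. The plot of levels by library shows this order.

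**Figure D1:**
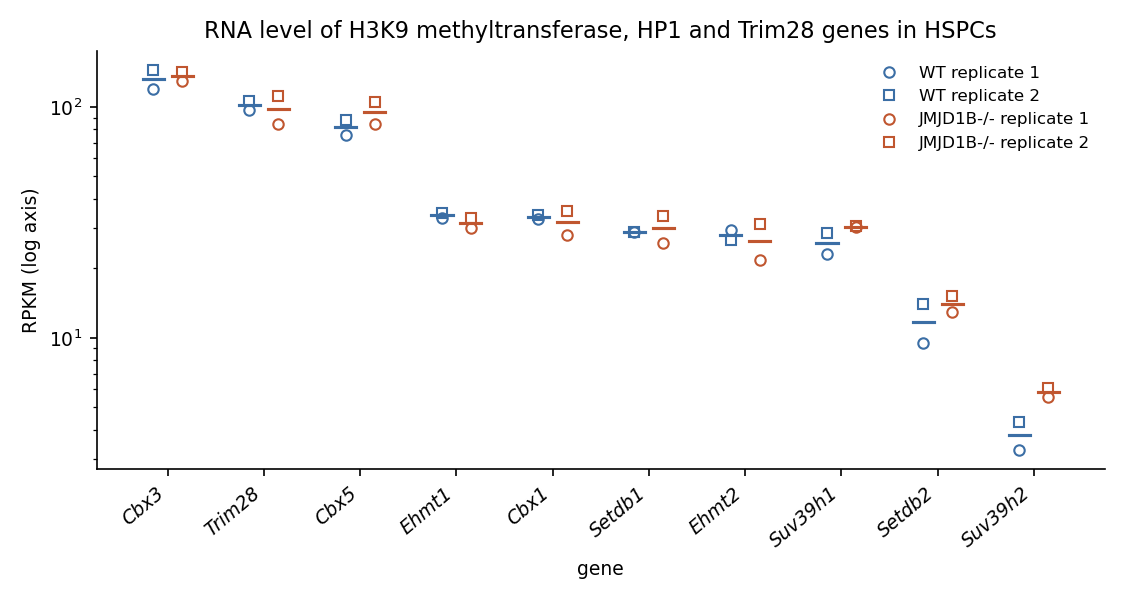
RNA level of the 10 genes in RPKM on a log axis, with 1 point per library (blue for WT, red for JMJD1B-/-, circles for replicate 1 and squares for replicate 2) and a line at each genotype's mean. The readers Cbx3 and Cbx5 and the corepressor gene Trim28 sit highest, Suv39h2 sits lowest, and only Ehmt1, Suv39h1 and Suv39h2 have genotypes that do not overlap.

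The RNA levels of the G9a and GLP genes were of similar size, with Ehmt1 at 1.13 and 1.31 times Ehmt2 in WT and at 1.38 and 1.06 times in JMJD1B-/-. Ehmt1 was 33.0 and 34.8 RPKM in WT and 29.9 and 32.9 RPKM in JMJD1B-/-, above the WT level of 85.2% of listed genes. Both JMJD1B-/- libraries were the lower ones, though the nearest libraries of the genotypes were closer to each other than replicates were. The mean was 33.9 ± 1.25 RPKM in WT and 31.4 ± 2.15 RPKM in JMJD1B-/-, a log2 fold change of -0.11 (SE 0.18, 95% interval -0.53 to 0.31, adjusted p = 0.87, limma), and -0.18 to -0.04 when 1 library was left out. Ehmt2 was 29.2 and 26.5 RPKM in WT and 21.7 and 31.0 RPKM in JMJD1B-/-. The WT values fell between the JMJD1B-/- values, which were the farther apart. The log2 fold change of Ehmt2 was -0.10 (SE 0.23, 95% interval -0.63 to 0.43, adjusted p = 0.913, limma). Its sign rested on JMJD1B-/- replicate 1, without which the value was 0.16. With the loss of Kdm3b RNA, the ratio of Ehmt2 to Kdm3b RPKM was 0.944 and 1.09 in WT and 5.42 and 6.71 in JMJD1B-/-, a ratio set by Kdm3b.

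Setdb1 and its corepressor gene Trim28 showed the same arrangement of libraries. Setdb1 was 28.9 and 28.8 RPKM in WT and 25.9 and 33.8 RPKM in JMJD1B-/-, so the WT pair fell inside the range of the JMJD1B-/- pair. Its log2 fold change was 0.03 (SE 0.20, 95% interval -0.44 to 0.51, adjusted p = 0.973, limma). Trim28 was 96.9 and 106.6 RPKM in WT and 84.2 and 111.4 RPKM in JMJD1B-/-, with the WT libraries again inside the JMJD1B-/- range. The difference in Trim28 was -0.07 on the log2 scale (SE 0.20, 95% interval -0.54 to 0.39, adjusted p = 0.929, limma). Within a library Trim28 RNA was 3.35 and 3.70 times that of Setdb1 in WT and 3.25 and 3.30 times in JMJD1B-/-. Setdb2 was less abundant, at 9.53 and 14.0 RPKM in WT and 12.9 and 15.1 RPKM in JMJD1B-/-. The high WT library lay between the JMJD1B-/- libraries, and the WT replicates differed by more than the means did. The log2 fold change of Setdb2 was 0.27 (SE 0.26, 95% interval -0.33 to 0.88, adjusted p = 0.75, limma), and it was close to 0 without WT replicate 1, at -0.0007.

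The SUV39H genes were the members with both JMJD1B-/- libraries above both WT libraries. Their promoters are printed here because this is the pair with the widest gap in level between paralogs and these are the members nearest to a difference by genotype. Each is the 250 bases before the gene's start in RefSeq (GRCm38.p6), read 5′ to 3′ on the minus strand, at chrX:8074761-8075010 for Suv39h1 and chr2:3474987-3475236 for Suv39h2. Capitals mark CCAAT boxes or E2F core motifs on either strand.
Suv39h1: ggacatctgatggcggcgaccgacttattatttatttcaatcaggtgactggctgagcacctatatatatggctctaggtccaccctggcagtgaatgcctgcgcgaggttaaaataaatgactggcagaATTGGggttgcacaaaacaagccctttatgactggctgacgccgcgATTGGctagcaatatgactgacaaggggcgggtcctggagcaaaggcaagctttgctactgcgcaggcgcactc
Suv39h2: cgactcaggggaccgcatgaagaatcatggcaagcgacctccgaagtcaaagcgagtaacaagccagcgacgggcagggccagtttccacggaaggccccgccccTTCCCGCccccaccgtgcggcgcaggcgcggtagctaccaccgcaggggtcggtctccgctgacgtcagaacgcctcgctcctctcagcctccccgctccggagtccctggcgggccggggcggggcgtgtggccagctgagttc
The pair differed in letters as well as in RNA level. Suv39h1 held 2 CCAAT boxes and 11 CpG dinucleotides, and Suv39h2 held 27 CpG dinucleotides and 1 E2F core, a motif bound by factors of the cell division program, which started 145 bases before the gene and overlapped a GC box. The E2F core was searched as TTCCCGC and as its variants with other central bases, namely TTGGCGC in the one case and TTCGCGC in the other. Both strands were searched for each motif, and for CCAAT. An E2F core was present in 4 of 10 member promoters (Suv39h2, Cbx1, Cbx3 and Trim28) and in 6.84% of 27025 mouse promoters of the same length. CCAAT was present in 4 of 10 (Setdb1, Setdb2, Suv39h1 and Cbx5) against 34.5% of all, and the GC box GGGCGG in 9 of 10, Setdb2 being the exception, against 33.0%. The erythroid GATA motif AGATAA was in 2 of 10 (Setdb1 and Cbx3) against 10.2%. The median CpG count was 20 for member promoters and 6 for all promoters. The E2F core and GC box letters searched all contain CpG, and the promoters set beside the members were not matched for CpG. The member shares of these motifs therefore cannot be told apart from CpG content.

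Suv39h1, whose gene is on the X chromosome, was 23.0 and 28.3 RPKM in WT and 30.2 and 30.5 RPKM in JMJD1B-/-. The JMJD1B-/- libraries nearly coincided, and the distance from WT replicate 2, the library with Xist, to the nearer of them was smaller than that between the WT libraries. The mean was 25.7 ± 3.75 RPKM in WT and 30.3 ± 0.20 RPKM in JMJD1B-/-, with a log2 fold change of 0.25 (SE 0.20, 95% interval -0.21 to 0.70, adjusted p = 0.702, limma). Without WT replicate 2 the value was 0.39, and without WT replicate 1 it was 0.10. Suv39h2 was 3.26 and 4.34 RPKM in WT and 5.55 and 6.06 RPKM in JMJD1B-/-. These levels rested on an estimated 57.0 and 107 reads per kb of transcript in WT and 33.9 and 127 in JMJD1B-/-, the fewest among the members, and the 33.9 would be 67.8 at the depth before halving. The JMJD1B-/- mean of 5.81 ± 0.355 RPKM was 152.9% of the WT mean of 3.80 ± 0.762 RPKM. This was the largest fitted difference among the members, at 0.61 on the log2 scale (SE 0.31, 95% interval -0.11 to 1.34), and it did not pass (unadjusted p = 0.0861, adjusted p = 0.562, limma). Leaving out 1 library at a time gave 0.41 to 0.81, and quantile normalization gave 0.76 with an unadjusted p of 0.0438 (adjusted p = 0.42, limma). Most genes on a list for cell division did not pass the test either. Of 16 proliferation genes, 3 were higher at an unadjusted p under 0.05, where 3.81% of all genes were, and 0 at an adjusted p under 0.05 in limma. The log2 fold change was positive for 16 of 16, against 5578 of 11863 over all genes, and both JMJD1B-/- libraries were above both WT libraries for 12, as they were for 20.1% of all genes, with sums of 1224 and 1440 RPKM in WT and 1559 and 1615 RPKM in JMJD1B-/-. The part of these levels in the Suv39h2 values was not tested.

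The HP1 genes Cbx3 and Cbx5 were among the most abundant members. Cbx3, which encodes HP1 gamma, was 120.0 and 144.9 RPKM in WT and 129.6 and 141.7 RPKM in JMJD1B-/-, with the JMJD1B-/- libraries inside the WT range. Its log2 fold change was 0.04 (SE 0.18, 95% interval -0.39 to 0.47, adjusted p = 0.963, limma). Cbx5, which encodes HP1 alpha, was 75.7 and 87.5 RPKM in WT and 84.7 and 105.3 RPKM in JMJD1B-/-. WT replicate 2 overlapped the JMJD1B-/- libraries, and the other WT library was the lowest. The log2 fold change of Cbx5 was 0.21 (SE 0.19, 95% interval -0.24 to 0.66, adjusted p = 0.735, limma), and it was 0.37 without the shallow JMJD1B-/- replicate 1 and 0.06 without JMJD1B-/- replicate 2. Cbx1, which encodes HP1 beta, was 32.8 and 34.2 RPKM in WT and 27.9 and 35.3 RPKM in JMJD1B-/-, with the WT libraries inside the JMJD1B-/- range. Cbx1 had a log2 fold change of -0.09 (SE 0.20, 95% interval -0.55 to 0.37, adjusted p = 0.901, limma). Processed copies of HP1 genes are known in the mouse genome, and how reads that map to several places were counted is not given in the sources used here, so HP1 levels carry that uncertainty.

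The intervals give the precision that 2 libraries per genotype allowed. For the 8 members other than Setdb2 and Suv39h2, the 95% intervals of the JMJD1B-/- to WT ratio lay within 0.645 to 1.63. For Setdb2 the interval was 0.793 to 1.84, and for Suv39h2 it was 0.926 to 2.53. The plot of genotype differences sets these intervals beside that of Kdm3b. Library differences within a genotype were also shared by the members, as JMJD1B-/- replicate 1 was below replicate 2 for 10 of 10 members against 65.6% of all genes, and WT replicate 1 was below replicate 2 for 8 of 10 against 50.6%.

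**Figure D2:**
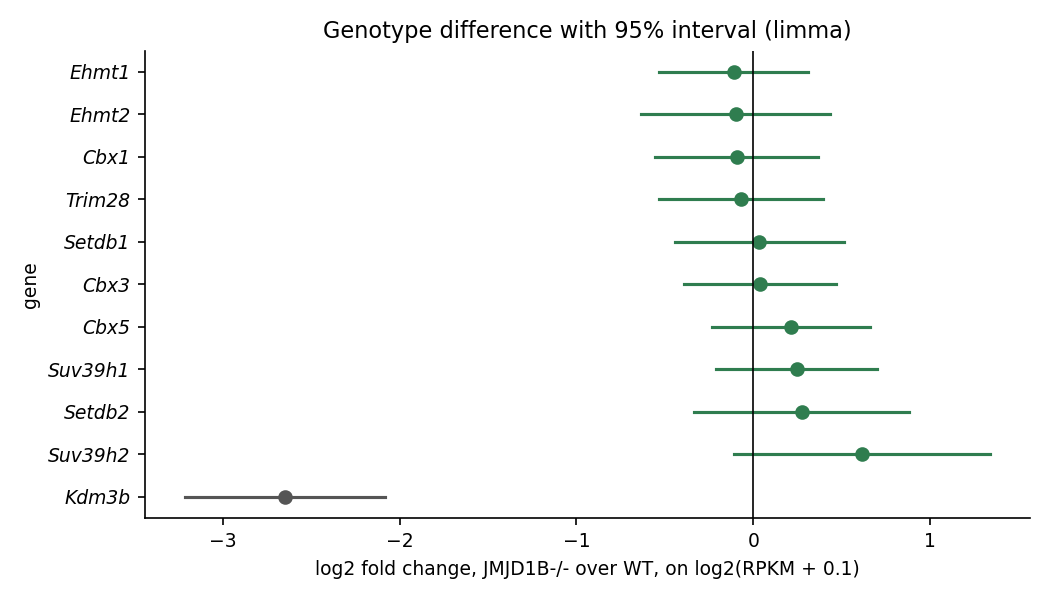
Log2 fold change of JMJD1B-/- over WT on the log2(RPKM + 0.1) scale from limma, with points at the fitted values and bars for 95% intervals. The interval of each of the 10 members (green) includes 0, while that of the targeted gene Kdm3b (grey) runs from -3.21 to -2.08.

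The balance between paralogs can be read within a library, where it does not depend on how libraries were scaled. No test was run on these shares. The exact permutation test for a single value cannot give a two-sided p below 0.333 with 2 against 2 libraries. Ehmt1 made up 53.0% and 56.8% of the summed Ehmt1 and Ehmt2 RPKM in WT and 58.0% and 51.5% in JMJD1B-/-, overlapping. Setdb1 made up 75.2% and 67.3% of its pair in WT and 66.7% and 69.1% in JMJD1B-/-, also overlapping. Suv39h2 was the smaller part of its pair in every library. Its share was 12.4% and 13.3% in WT and 15.5% and 16.6% in JMJD1B-/-, a mean difference of 3.24 percentage points with no overlap.

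Within the HP1 genes, Cbx3 held 52.5% and 54.4% of the summed RPKM in WT and 53.5% and 50.2% in JMJD1B-/-, overlapping. The share of Cbx5 was 33.1% and 32.8% in WT and 34.9% and 37.3% in JMJD1B-/-, higher by 3.16 points with no overlap, and by 1.98 points without JMJD1B-/- replicate 2. The share of Cbx1 was 14.4% and 12.8% in WT and 11.5% and 12.5% in JMJD1B-/-, with both JMJD1B-/- libraries just below both WT libraries. This difference of -1.58 points ran from -2.34 to -0.815 points when 1 library was left out, smallest in size without WT replicate 1. The genotypes thus did not overlap for 3 of the 6 shares described, where the levels of 42.9% of all genes did not overlap, and the HP1 shares depend on each other because they add up to a fixed total. The order Cbx3, Cbx5, Cbx1 was the same in all 4 libraries. Summed over all 6 methyltransferase genes, the level was 126.9 and 136.7 RPKM in WT and 126.1 and 149.4 RPKM in JMJD1B-/-, with the WT sums inside the JMJD1B-/- range. The 3 HP1 genes and Trim28 summed to 325.4 and 373.3 RPKM in WT and 326.4 and 393.7 RPKM in JMJD1B-/-, overlapping.

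**Figure D3:**
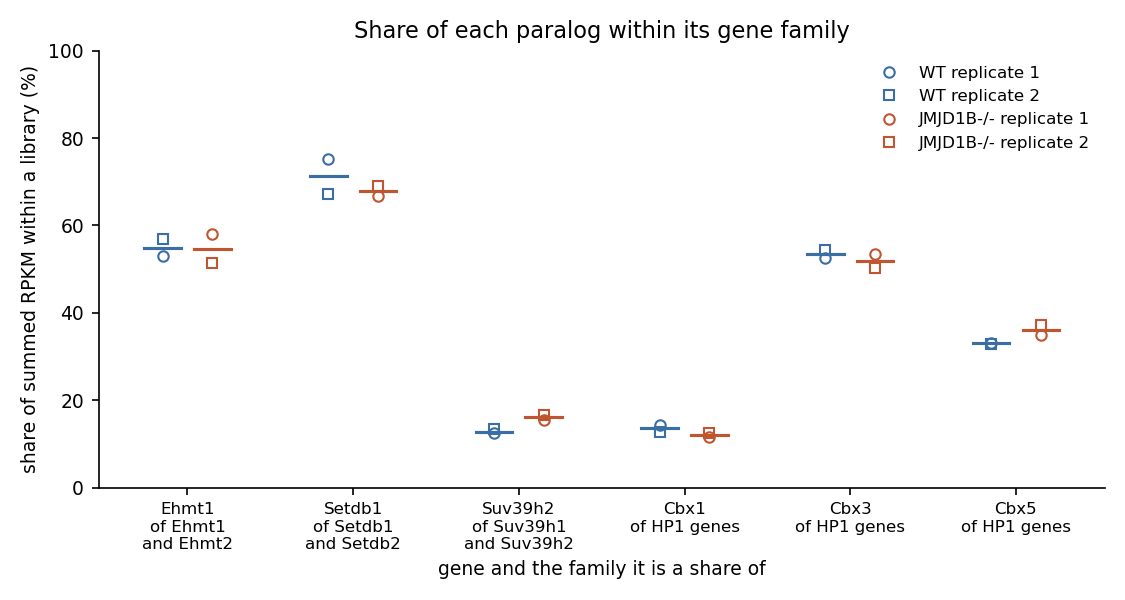
Share of each named gene in the summed RPKM of its family within a library, in percent, with 1 point per library and a line at each genotype's mean. The shares of Suv39h2 and Cbx5 were higher and that of Cbx1 was lower in both JMJD1B-/- libraries, while those of Ehmt1, Setdb1 and Cbx3 overlapped.

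Partners of these enzymes and readers, the other H3K9 demethylases and related PRDM genes were taken from lists of 48 genes, of which 45 were in the table and Atf7ip2, Tasor2 and Kdm4d were not analysed here. Of the 45, 3 were lower and 1 was higher at an unadjusted p under 0.05, none at an adjusted p under 0.05 (lowest 0.208, limma), and the median log2 fold change was 0.0018. These shares were near the 6.33% and 3.81% of all genes. The genes called were Atf7ip, Gfi1, Mecom and Gfi1b, and they stand out in the plot by list.

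**Figure D4:**
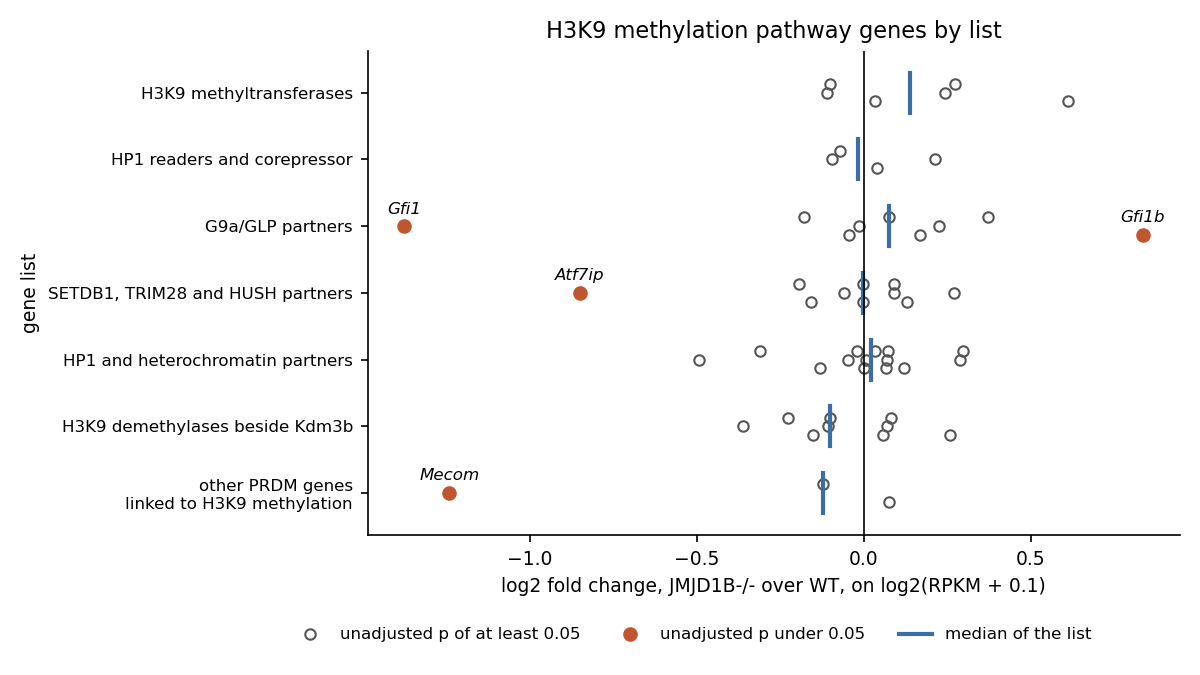
Log2 fold change of JMJD1B-/- over WT, on the log2(RPKM + 0.1) scale, for the 10 members (upper pair of lists) and the 45 other H3K9 methylation genes, with 1 point per gene. Filled points are the 4 genes at an unadjusted p under 0.05, vertical bars are list medians, and most open points lie near 0.

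Among 10 genes that work with SETDB1 or TRIM28 or belong to the HUSH silencing complex, 1 was lower, 0 were higher and the median log2 fold change was -0.0019. The gene called was Atf7ip, which encodes the cofactor that stabilises SETDB1 and promotes its trimethylating activity. Atf7ip was 53.6 and 55.6 RPKM in WT and 28.3 and 32.4 RPKM in JMJD1B-/-. Both JMJD1B-/- libraries lay far below both WT libraries, and the replicates of each genotype were close. The level fell from 54.6 ± 1.42 RPKM to 30.3 ± 2.92 RPKM, 55.5% of the WT mean, with a log2 fold change of -0.85 (SE 0.18, unadjusted p = 0.0018, adjusted p = 0.208, limma). It remained at an unadjusted p under 0.05 in 13 of 13 alternative analyses, with -0.95 to -0.75 when 1 library was left out. Among the alternatives that kept all 4 libraries, its adjusted p passed 0.05 only with the replicate block (0.0136, limma). That fit also called more genes in all, 914 lower and 571 higher against 751 and 452 in the main fit. The adjusted p was otherwise 0.183 to 0.407 in limma and 0.638 in the gene-by-gene test without shared variance. Atf7ip had the highest level of its list, above Setdb1 in both WT libraries, while the Setdb1 libraries given above overlapped between genotypes. The HUSH genes Tasor (-0.16), Mphosph8 (-0.06) and Pphln1 (0.27) were not called, with adjusted p from 0.682 to 0.949 (limma).

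Of 9 genes whose proteins bind G9a or GLP, 1 was lower and 1 was higher, with a median log2 fold change of 0.08. Gfi1, a transcriptional repressor needed for neutrophil differentiation that recruits G9a, was 3.48 and 3.74 RPKM in WT and 2.35 and 0.732 RPKM in JMJD1B-/-. Both JMJD1B-/- libraries were lower but differed from each other by more than the WT pair. The log2 fold change was -1.37 (SE 0.58, unadjusted p = 0.0464, adjusted p = 0.486, limma), and Gfi1 was called in 5 of 13 alternative analyses. It was not called at a mean of at least 1 RPKM (unadjusted p = 0.0502, limma), under median-ratio scaling, quantile normalization, limma without trend or a gene-by-gene test without shared variance, or without either WT library. Without JMJD1B-/- replicate 2 its value was -0.59 with an unadjusted p of 0.12 (limma), and without JMJD1B-/- replicate 1 it was -2.15. Its relative Gfi1b, which acts in erythroid and megakaryocyte precursors, was 24.3 and 23.2 RPKM in WT and 35.5 and 50.7 RPKM in JMJD1B-/-. Both JMJD1B-/- libraries were higher, with a log2 fold change of 0.84 (SE 0.22, unadjusted p = 0.00625, adjusted p = 0.309, limma). Leaving out 1 library at a time gave 0.58 to 1.09 for Gfi1b, and it was called in 12 of 13 alternative analyses, all but the gene-by-gene test without shared variance. Granulocyte marker RNA moved with Gfi1 and erythroid marker RNA with Gfi1b, in the sums given above, and their part in either value was not tested. The most abundant gene of the list in WT, Mga, a subunit of a repressor complex with G9a and GLP, was 34.0 and 37.1 RPKM in WT and 32.8 and 37.8 RPKM in JMJD1B-/-, overlapping.

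Of 14 genes for HP1 partners and heterochromatin factors, 0 were called at an unadjusted p under 0.05 in limma and 0 at an adjusted p under 0.05, with a median log2 fold change of 0.02. The most abundant, the maintenance DNA methyltransferase Dnmt1, was 98.1 and 107.4 RPKM in WT and 102.2 and 104.4 RPKM in JMJD1B-/-, inside the WT range. The largest difference was that of Kmt5c, the H4K20 methyltransferase brought to heterochromatin by HP1, at 27.7 and 25.2 RPKM in WT and 14.9 and 23.5 RPKM in JMJD1B-/-. The shallow JMJD1B-/- replicate 1 was the low library, and the log2 fold change was -0.49 (SE 0.25, unadjusted p = 0.0901, adjusted p = 0.57, limma).

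The 9 H3K9 demethylase genes analysed beside Kdm3b had 0 called lower and 0 called higher, with a median log2 fold change of -0.10. Their summed level was 178.6 and 183.3 RPKM in WT and 171.0 and 188.8 RPKM in JMJD1B-/-, overlapping. The closest relatives of Kdm3b were Jmjd1c, at 49.9 and 56.6 RPKM in WT and 55.6 and 56.0 RPKM in JMJD1B-/-, and Kdm3a, at 20.7 and 17.6 RPKM in WT and 14.3 and 22.3 RPKM in JMJD1B-/-. Neither relative differed beyond its spread (adjusted p = 0.92 and 0.925, limma), and the Kdm3b share of the 3 went from 30.5% and 24.6% to 5.41% and 5.58%. The largest difference among the demethylases was that of Phf8, an X-linked gene, at 10.7 and 11.2 RPKM in WT and 8.49 and 8.47 RPKM in JMJD1B-/-. Its libraries did not overlap, and the log2 fold change was -0.36 (SE 0.23, unadjusted p = 0.151, adjusted p = 0.626, limma).

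The last list held 3 PRDM genes linked to H3K9 methylation. Mecom, which encodes a zinc finger factor needed by hematopoietic stem cells, was 3.38 and 2.71 RPKM in WT and 1.25 and 1.20 RPKM in JMJD1B-/-. The JMJD1B-/- libraries nearly coincided, below both WT libraries. The log2 fold change was -1.24 (SE 0.44, unadjusted p = 0.0246, adjusted p = 0.43, limma), and Mecom was not called when WT replicate 1 (-1.09, unadjusted p = 0.206) or WT replicate 2 (-1.39, unadjusted p = 0.111) was left out of the limma fit, or with the replicate block (unadjusted p = 0.0563). Stem and progenitor marker RNA was lower in the same libraries, and its part in the Mecom value was not tested. Prdm2, the most abundant of the 3, was 8.67 and 9.16 RPKM in WT and 8.54 and 7.84 RPKM in JMJD1B-/-, with a log2 fold change of -0.12 (adjusted p = 0.891, limma).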

How the data were processed

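PolyA RNA from HSPCs was sequenced by the authors in 4 libraries, 2 WT and 2 JMJD1B-/-, made with an Illumina TruSeq kit that does not mark strand. The submitters' processing notes name TopHat2, Novoalign and mm9. The counting program and annotation are not given in the sources used here. The deposited table held RPKM with 1 added, as the lowest value was 1, and this 1 was subtracted. It held 12024 entries, each with a deposited value of at least 2.0001 in some library, and 84 entries that shared 42 names were averaged. No member shared a name. The labels do not say whether replicates came from separate mice, so p-values measure the spread between these samples.

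Genes with a mean of at least 0.5 RPKM (11863) were tested on log2(RPKM + 0.1) in limma 3.58.1 (R 4.3.3) with a mean-variance trend, genotype as the only term and two-sided p-values, Benjamini-Hochberg adjusted over all genes tested. Adding the 0.1 understates changes of low genes. A gene is called lower or higher at an unadjusted p under 0.05. The study's text names a Student test, which was kept as an alternative. Figures were drawn with matplotlib 3.10.9. Estimated depth rests on the spans of 14 genes and covers counting error only.

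The members, lists and motifs were chosen with earlier results of these data known. Text names the members, Kdm3b and, per partner, demethylase, PRDM or germline list, each called gene, the most abundant gene and that of largest change. Marker and proliferation lists are given by sums and counts, with a few marker genes named. Tasor, Mphosph8, Pphln1, Kdm3a, Cdyl, Kdm7a, Kit, Camp, Ltf, Cd79b and the genes Xist and Ddx3y were named after their values were seen, and the Xist and Ddx3y check was added then. Tasor, Kmt5c, Kmt5b, Kdm7a, Adgre1 and Resf1 appear in the table under older names (D14Abb1e, Suv420h2, Suv420h1, Jhdm1d, Emr1 and 2810474O19Rik). RefSeq promoters (GRCm38.p6) matched 10 of 10 members. ChIP-seq samples were not analysed here.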

Additional observations from a re-analysis of the deposited data

How the results depend on the processing

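With 13 alternative analyses per gene (pseudocounts of 1 and 0.01, no filter or a mean of at least 1 RPKM, median-ratio scaling, quantile normalization, limma without trend, a Student test per gene, a replicate block and each library left out), 0 of 10 members were called except that quantile normalization made 1 member higher, Suv39h2. Kdm3b was called in 13 of 13 at the unadjusted threshold. Over the members and Atf7ip, Gfi1, Gfi1b, Mecom and Stag3, 170 results kept direction and side of the threshold, 16 were no longer past it, 1 was newly past it and 8 reversed. The members' median was -0.09 to 0.19 over the same alternatives. Leaving out 1 library gave -0.18 to -0.04 for Ehmt1, -0.36 to 0.16 for Ehmt2, -0.16 to 0.23 for Setdb1, -0.0007 to 0.55 for Setdb2, -0.26 to 0.0755 for Cbx1, -0.10 to 0.18 for Cbx3 and -0.27 to 0.13 for Trim28, and quantile normalization gave -0.0609 for Cbx3. Dropping JMJD1B-/- replicate 1 moved the median of all genes to 0.09, with 9 members positive, and dropping replicate 2 moved it to -0.10, with 6 members negative. Over all genes, leaving out 1 library gave 177 to 1819 lower (751 with all) and 123 to 1258 higher (452 with all). Among the 45 listed partner, demethylase and PRDM genes it gave 1 to 4 lower and 1 to 2 higher, and the Student test gave 2 higher, Cdyl and Kdm7a. Where 1 library is left, it is assumed to vary like the other genotype, and the cause of these shifts was not tested. The labels do not say whether the replicate numbers shared by the genotypes pair the samples. The replicate differences of the genotypes had r = -0.054 over 11863 genes. This value rests on a single difference per genotype and cannot decide the question. With the replicate block, 914 genes were lower, 571 were higher and 0 members were called, while Atf7ip and Gfi1b passed at an adjusted p under 0.05 (0.0136 and 0.0263, limma). The intervals given in the text show the precision of 2 libraries per genotype. The paralog shares, when 1 library was left out, differed by 2.72 to 3.76 points for Suv39h2, 1.98 to 4.34 for Cbx5 and -2.34 to -0.815 for Cbx1, and changed sign for Ehmt1 (-3.42 to 3.07), Setdb1 (-7.31 to 0.557) and Cbx3 (-3.25 to 0.0921). Depth limits low genes such as Suv39h2 most in JMJD1B-/- replicate 1.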

Other observations

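Germline genes are a class of genes silenced in body cells by H3K9 methyltransferases and DNA methylation. Of 17 chosen, 2 were in the table and 15 were not analysed here. Since the table holds only entries above a minimum in some library, the 2 do not stand for the list. Of the 2, 1 was called higher, Stag3, where 3.81% of all genes were. Stag3, a meiotic cohesin subunit, was 4.00 and 2.03 RPKM in WT and 6.62 and 5.16 RPKM in JMJD1B-/-, with both JMJD1B-/- libraries above both WT libraries. Its log2 fold change was 1.01 (SE 0.40, unadjusted p = 0.0393, adjusted p = 0.477, limma). It was called in 9 of 13 alternative analyses. Without WT replicate 2 the value was 0.53 with an unadjusted p of 0.303, and without JMJD1B-/- replicate 1 it was 0.83 with an unadjusted p of 0.0792 (limma). The call was also lost in limma without trend (unadjusted p = 0.0561) and in the gene-by-gene test without shared variance. Ddx4, a germ cell RNA helicase, was 0.378 and 1.14 RPKM in WT and 2.01 and 0.946 RPKM in JMJD1B-/-, overlapping (log2 fold change 0.95, adjusted p = 0.704, limma).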
